A study of Mus musculus with 16 samples.

Results

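The SERINC family (serine incorporators) consists in the mouse of Serinc1, Serinc2, Serinc3, Serinc4 and Serinc5, and all 5 were found by symbol among the 24062 genes of the count table and the 23991 genes of the FPKM table. RNA-seq was run on whole brain, cerebellum included, of 16 female C57BL/6J mice killed on postnatal day 45, with 4 mice in each of 4 groups and 1 library per mouse. Water-Water mice drank tap water throughout, Nicotine-Water mice had 200 µg/ml nicotine freebase in all bottles for 22 h per day, Water-Ethanol mice had 20% v/v ethanol in a daily session on 4 days (the drinking-in-the-dark protocol, 2 h per session and 4 h in the last), and Nicotine-Ethanol mice had both. Nicotine began before the ethanol days and ran through them. Its bottles were off during the sessions, so nicotine was absent for the last 4 h before death. On the last day, the paper reports, mice with nicotine drank more ethanol and had higher blood ethanol than mice without. Nicotine-Ethanol and Water-Ethanol therefore did not differ in nicotine alone. All groups share the same inbred strain, sex and age. Counted reads ran from 27100352 to 32880979 per mouse (median 29448284). In the mice with numbers 21 (Water-Water) and 10 (Nicotine-Water) the summed level of 5 cerebellar markers was 328 and 427 CPM (counts scaled to a common library size), against 770.0 to 911 in the other 14 mice, so the differences of Serinc1, Serinc2, Serinc3 and Serinc5 from Water-Water are given with and without them. The family was picked on Serinc2, which had the smallest p-value of all genes in Water-Ethanol against Water-Water and in Nicotine-Ethanol against Water-Water. Its differences between ethanol and no ethanol are therefore given below as a description, without a test. The other 4 members had no part in the choice.

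SERINC proteins cross membranes many times and were named for a proposed role in bringing serine into phosphatidylserine and sphingolipids, lipids in which brain and myelin are rich. Members have since been shown to move phospholipids between the leaflets of a membrane, and SERINC3 and SERINC5 are known for lowering the infectivity of HIV-1 particles that carry them. Serinc5 is also known from oligodendrocytes, the myelin-forming cells. The region that holds SERINC2 and its neighbour NKAIN1 has been linked to alcohol dependence in human association studies.

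The DNA just before the start site of each member is shown first, since it is the part of the gene nearest to where transcription is set. RefSeq start sites on GRCm38.p6 were matched for 4 members, Serinc2, Serinc3, Serinc4 and Serinc5, and not for Serinc1. Serinc2 had 3 start sites, and the outermost, at chr4:130275586 on the minus strand, was also the gene's end in the count table. The 250 bases before that start (chr4:130275587-130275836), those of Serinc3 (chr2:163645144-163645393, minus strand) and those of Serinc5 (chr13:92610888-92611137, plus strand) read 5′ to 3′ as follows, with every match on either strand to 5 short promoter motifs in capitals: the CCAAT box, the GC box GGGCGG, the CRE core TGACG, the TATA box TATAAA and the E-box CACGTG.
Serinc2: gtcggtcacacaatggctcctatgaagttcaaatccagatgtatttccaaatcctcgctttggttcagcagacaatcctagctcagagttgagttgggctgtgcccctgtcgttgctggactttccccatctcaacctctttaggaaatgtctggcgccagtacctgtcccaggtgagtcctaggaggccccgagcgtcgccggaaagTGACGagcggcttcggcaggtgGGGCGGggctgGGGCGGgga
Serinc3: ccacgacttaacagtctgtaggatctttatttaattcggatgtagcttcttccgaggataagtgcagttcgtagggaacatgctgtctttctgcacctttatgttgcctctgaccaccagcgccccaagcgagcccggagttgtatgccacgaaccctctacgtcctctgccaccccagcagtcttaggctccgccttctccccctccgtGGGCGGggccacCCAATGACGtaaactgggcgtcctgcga
Serinc5: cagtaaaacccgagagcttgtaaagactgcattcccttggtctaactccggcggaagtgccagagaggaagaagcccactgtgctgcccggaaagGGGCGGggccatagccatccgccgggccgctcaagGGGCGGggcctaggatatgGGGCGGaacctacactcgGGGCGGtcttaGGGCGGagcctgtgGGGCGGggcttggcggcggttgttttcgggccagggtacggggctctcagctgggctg
Serinc2 held 2 GGGCGG matches, beginning 20 and 9 bases before the start, and 1 TGACG match 42 bases before it. Serinc5 held 6 GGGCGG matches and Serinc3 held 1. In Serinc3 a match to CCAAT overlaps its match to TGACG. Of 32851 RefSeq start sites, 32.7% had GGGCGG within 250 bases, 33.8% had CCAAT and 17.8% had TGACG. The motifs TATAAA (12.4% of start sites) and CACGTG (6.02%) were in none of these windows. The GC content was 57.6% before Serinc2, 56% before Serinc3 and 65.6% before Serinc5, against a median of 52.4%. Before Serinc4, whose sequence is not printed, it was 44%, with 2 CCAAT matches and no match to the other motifs. Before the inner start sites of Serinc2 it was 65.6% and 43.2%. The inner start sites of Serinc2 had none of these motifs in their windows, and the deposited tables give 1 value per gene and no start site usage.

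The members differed in level by orders of magnitude, and Serinc2 was the lowest of the 4 for which both tables gave a like level. FPKM, a fragment count scaled for transcript length and library size, was used to compare genes, since it is scaled for length. Serinc1 had a mean of 444.1 FPKM ± 26.8 (SD, n = 16 mice), Serinc3 of 100.1 ± 4.45, Serinc5 of 22.5 ± 1.36 and Serinc2 of 4.54 ± 1.06. This order held in all 16 mice, and no neighbours in it overlapped. Within a mouse the FPKM of Serinc1 was 4.16 to 4.75 times that of Serinc3, that of Serinc3 was 3.62 to 5.13 times that of Serinc5, and that of Serinc5 was 3.46 to 7.64 times that of Serinc2. Serinc1 made up 76.0% to 79.0% of the summed FPKM of these 4 genes, and Serinc2 0.513% to 1.1%. The sum was 604.9 FPKM ± 11.4 (SD, n = 4) in Water-Water, 544 ± 37.7 in Nicotine-Water, 572 ± 14.4 in Water-Ethanol and 564 ± 7.23 in Nicotine-Ethanol. The mean family total, carried by Serinc1, was thus highest in Water-Water and lowest in Nicotine-Water. It did not follow the order of Serinc2 in reverse. CPM divided by the exon length in kilobases gave 409.8, 94.2, 21.5 and 4.08 for the same 4 genes, a similar scale and the same order.

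**Figure D1:**
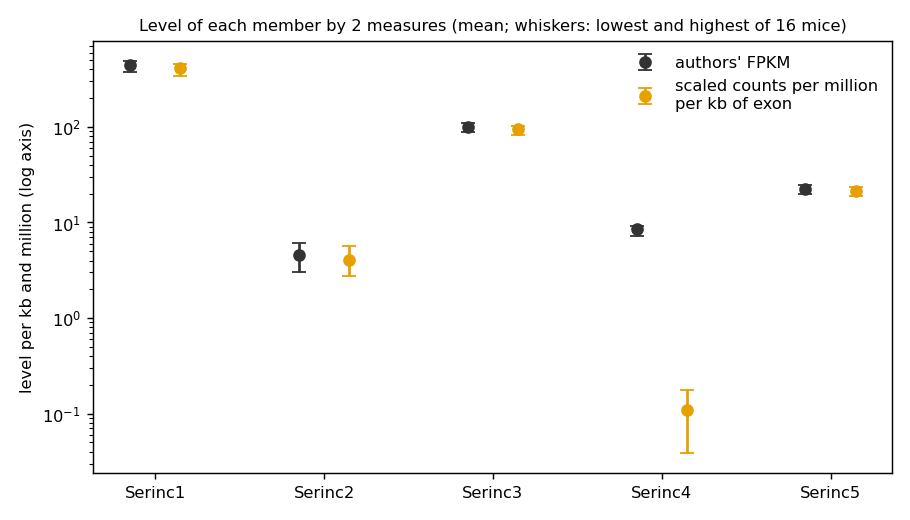
Level of each SERINC gene on a log axis, as the authors' FPKM (black) and as CPM per kilobase of exon (orange), with points at the mean and whiskers from the lowest to the highest of 16 mice. The measures lie close together for Serinc1, Serinc2, Serinc3 and Serinc5, and apart for Serinc4 (8.48 FPKM against 0.11).

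Serinc4 was the exception. Its FPKM was 8.48 ± 0.455 (SD, n = 16), above Serinc2 in every mouse, while the count table held only 3 to 13 Serinc4 reads per mouse, which is 0.11 CPM per kilobase. The FPKM was 77.2 times the count-based level. Among 13376 genes with a mean FPKM of at least 1 and at least 1 read, the median of this ratio was 1.07, and 178 genes (1.33%) had a ratio of at least 10. Serinc4 lies at chr2:121451177-121456764 on the minus strand, and 1271 of its 2534 exon bases (50.2%) are also exon of Serf2, a gene on the plus strand with a mean of 3013 counted reads. The FPKM table places Serinc4 at chr2:121449198-121456764, a span that begins at the first base of Serf2. The part of this overlap in the difference between the tables was not tested. Which program counted the reads, and whether it took strand into account, is not given in the sources used here. The kit number in the labels is that of an unstranded kit, while the study's methods describe a stranded one. No position in the order of levels is therefore given to Serinc4.

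Serinc2 (chr4:130253497-130275586, minus strand, 11 exons) was highest in the ethanol groups. Its normalized read count, scaled by edgeR's TMM factors to the mean library, was 171, 166, 184 and 163 in the Water-Water mice. It was 234, 213, 225 and 198 in the Nicotine-Water mice. It was 282, 241, 334 and 297 in the Water-Ethanol mice and 297, 271, 315 and 281 in the Nicotine-Ethanol mice. All 12 treated mice lay above all 4 Water-Water mice, which held for 25 of 15592 genes (0.160%). The Nicotine-Water mice lay between Water-Water and both ethanol groups without overlap, and the ethanol groups overlapped fully with each other. In FPKM the same mice ran from 3.05 to 3.43 in Water-Water, 3.79 to 4.35 in Nicotine-Water, 4.63 to 6.09 in Water-Ethanol and 5.19 to 5.84 in Nicotine-Ethanol, in the same order and again with no overlap other than that of the ethanol groups. Only 1 other gene of 15592, Trabd, had Water-Water below Nicotine-Water below both ethanol groups without overlap, at 473 to 541, 543 to 556, 574 to 655 and 633 to 646 normalized reads. Both shares rest largely on the ethanol split on which Serinc2 was picked, so they describe the choice and are not a separate finding.

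**Figure D2:**
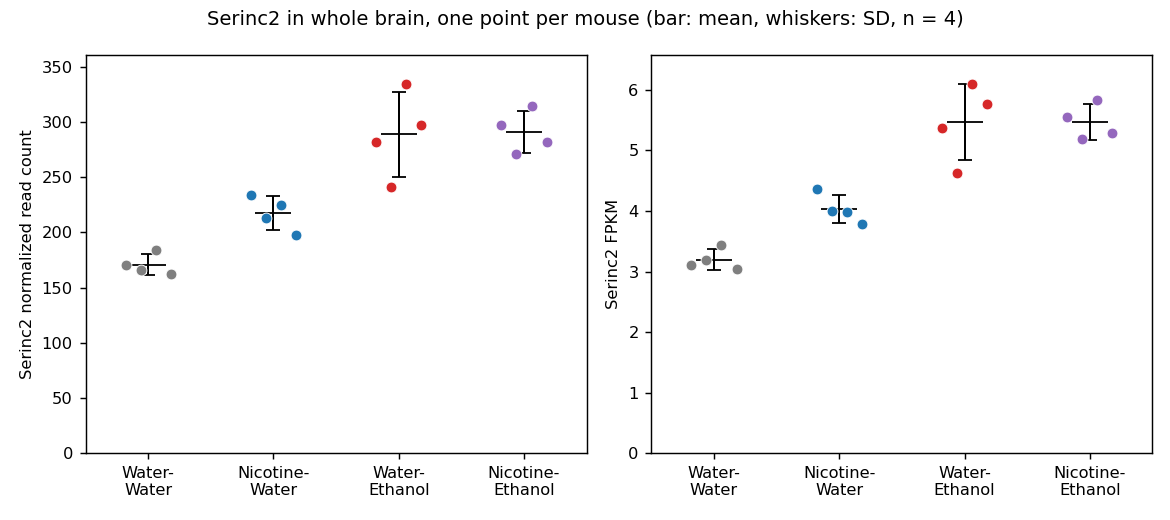
Serinc2 in each mouse as normalized read count (left) and FPKM (right), by group, with bars at the mean and whiskers of 1 SD (n = 4). The Nicotine-Water mice (198 to 234 normalized reads) sit between the Water-Water mice (163 to 184) and the ethanol groups (241 to 334).

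In the comparisons on which it was picked, Serinc2 was 1.69-fold higher in Water-Ethanol than in Water-Water (log2 fold change 0.76, SE 0.10) and 1.71-fold higher in Nicotine-Ethanol than in Water-Water (0.77, SE 0.079). The next genes in the ranking by p-value were Pcdh10, a protocadherin, at a log2 fold change of -0.23 in Water-Ethanol, and Chd2, a chromatin remodeller, at 0.33 in Nicotine-Ethanol. edgeR called 70 of 15323 genes (0.457%) in Water-Ethanol and 48 of 15313 (0.313%) in Nicotine-Ethanol, and Serinc2 was the member called in both, as the choice implies. Without Water-Water mouse 21 the numbers of genes called were 797 and 283. Its 4 mice were all higher than Water-Water in both, which 5.09% and 5.18% of genes also showed. Nicotine-Ethanol was 0.42 (SE 0.085) above Nicotine-Water on the log2 scale, again without overlap, which held for 4.35% of genes. Averaged over nicotine, the ethanol groups were 0.59 (SE 0.065) above the groups without ethanol. Without the mice numbered 21 and 10 these log2 differences were 0.74, 0.75, 0.43 and 0.58 in the same order. The log2 difference from Water-Water ran from 0.68 to 0.83 in Water-Ethanol and from 0.73 to 0.81 in Nicotine-Ethanol when each mouse was left out in turn.

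The nicotine comparisons of Serinc2 were not those used to pick it, but they share mice with them. The Water-Water mice enter Nicotine-Water against Water-Water, and the Water-Ethanol and Nicotine-Ethanol mice enter the comparison of these groups. A choice on large differences from Water-Water favours low Water-Water values, which raise the Nicotine-Water difference. It also favours genes that are high in both ethanol groups, and so alike in them. The tests given here are therefore not independent of the choice. In Nicotine-Water its log2 fold change over Water-Water was 0.35 (SE 0.088, 95% confidence interval 0.16 to 0.54), which edgeR's quasi-likelihood test did not call after adjustment over 15344 genes (adjusted p = 0.257). The edgeR, DESeq2 or limma adjusted p ran from 0.1004 to 0.691 over the alternatives, and edgeR called no gene in the fit of these groups (0%), with 1295 genes at an unadjusted p under 0.05, while 112 were called by edgeR in the fit of all 16 mice and 107 by DESeq2. Without the mice numbered 21 and 10 the difference was 0.31 (edgeR adjusted p = 0.389). All 4 Nicotine-Water mice were above all Water-Water mice, which 1.71% of genes showed, and the mean was 1.27-fold higher. Nicotine-Ethanol differed from Water-Ethanol by 0.01 (95% interval -0.18 to 0.21, edgeR adjusted p = 0.985). edgeR called 0 of 15319 genes there (0%), with 888 at an unadjusted p under 0.05, and DESeq2 called 2. The averaged nicotine effect and the interaction are built from all 4 groups, those of the choice included, and are given for Serinc2 as a description. Averaged over ethanol, the nicotine groups were 0.18 higher (SE 0.065). The interaction, which is how far the nicotine difference with ethanol departs from that without, was -0.33 (SE 0.13). Without the mice numbered 21 and 10 these were 0.16 and -0.30. edgeR called 0% of genes for the nicotine effect and 0% for the interaction, against 65 and 2 genes by DESeq2 and 1599 and 1054 at an unadjusted edgeR p under 0.05.

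The spread of Serinc2 within groups was close to that of counting in 3 groups. The SD of its normalized read count was 9.28 in Water-Water, 15.5 in Nicotine-Water and 18.9 in Nicotine-Ethanol, against square roots of the means of 13.1, 14.7 and 17.1. In Water-Ethanol the SD was 38.4 against 17.0, with mouse 14 lowest (241) and mouse 15 highest (334).

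Serinc1 (chr10:57515775-57532529, minus strand, 9 exons), the most abundant member, was lower in every treated mouse than in every Water-Water mouse, with group means 0.888 to 0.922 times that of Water-Water. Its normalized read count was 37033, 38732, 37486 and 36279.9 in Water-Water, 28690.4, 34470.0, 33736 and 35852 in Nicotine-Water, 34455, 35308, 33075 and 35066 in Water-Ethanol, and 33845, 34455, 33679 and 35023 in Nicotine-Ethanol. The treated groups overlapped with each other, and mouse 7 of Nicotine-Water was the lowest of all. The lowest ratio was that of Nicotine-Water and the highest that of Water-Ethanol. FPKM gave the same picture, with 464 to 489 in Water-Water and 373 to 454 in the 12 treated mice. An exact two-sided permutation test of each treated group against Water-Water gave p = 0.0286, the smallest that 4 against 4 mice allow. These comparisons share their Water-Water mice. All 12 treated mice lay below all Water-Water mice in 146 of 15592 genes (0.936%), and 4.19%, 5.6% and 5.45% of genes did so for Nicotine-Water, Water-Ethanol and Nicotine-Ethanol taken separately.

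The genome-wide test did not call Serinc1. Its log2 fold change was -0.17 (SE 0.063, edgeR adjusted p = 0.489) in Nicotine-Water, -0.11 (SE 0.036, adjusted p = 0.120) in Water-Ethanol and -0.12 (SE 0.034, adjusted p = 0.112) in Nicotine-Ethanol. DESeq2 called it in both ethanol groups, at -0.11 (adjusted p = 0.0444) and -0.13 (adjusted p = 0.0101), and not in Nicotine-Water (adjusted p = 0.351). Over all alternatives the adjusted p ran from 0.0444 to 0.277 in Water-Ethanol and from 0.0101 to 0.321 in Nicotine-Ethanol. Without mouse 7 the Nicotine-Water difference was -0.11. Without the mice numbered 21 and 10 the differences were -0.19, -0.13 and -0.14 in the same order (edgeR adjusted p = 0.420, 0.0549 and 0.0564). Nicotine-Ethanol and Water-Ethanol differed by -0.01 (95% interval -0.08 to 0.06, edgeR adjusted p = 0.970). Since Nicotine-Water was as low as the ethanol groups, the ethanol effect averaged over nicotine was -0.04 (edgeR adjusted p = 0.590), where edgeR called 702 of 15592 genes (4.5%), and the interaction was 0.16 (95% interval 0.01 to 0.32, edgeR adjusted p = 0.720).

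**Figure D3:**
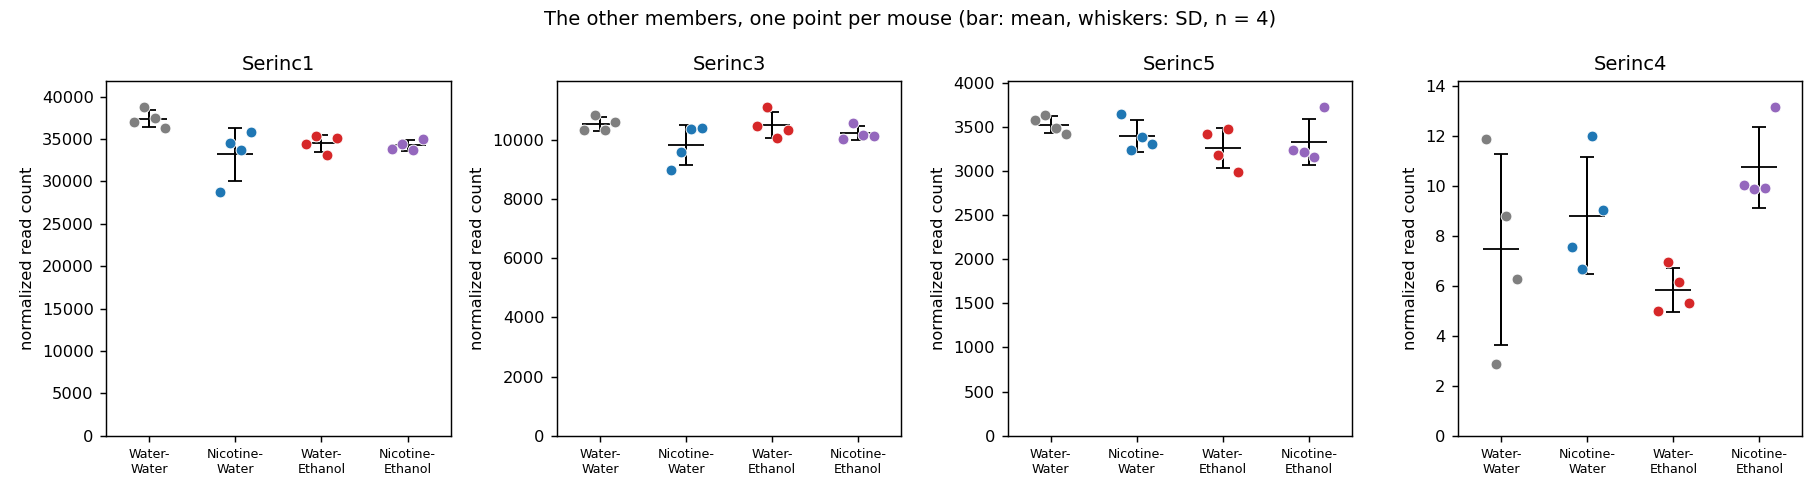
Normalized read count of Serinc1, Serinc3, Serinc5 and Serinc4 in each mouse, by group, with bars at the mean and whiskers of 1 SD (n = 4, axes start at 0). Serinc1 is highest in the 4 Water-Water mice, Serinc3 and Serinc5 overlap between groups, and Serinc4 has at most 13 normalized reads.

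Serinc3 (chr2:163623273-163645143, minus strand, 10 exons) was not called in any comparison. Its normalized read count ran from 10336 to 10838 in Water-Water, 8979.7 to 10409 in Nicotine-Water, 10067 to 11106 in Water-Ethanol and 10051 to 10574 in Nicotine-Ethanol, and these ranges overlap. The log2 fold change from Water-Water was -0.10 (95% interval -0.21 to 0.02, edgeR adjusted p = 0.651) in Nicotine-Water, -0.002 (-0.09 to 0.08, adjusted p = 0.987) in Water-Ethanol and -0.04 (-0.11 to 0.03, adjusted p = 0.570) in Nicotine-Ethanol. Without the mice numbered 21 and 10 these were -0.12, 0.002 and -0.04.

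Serinc5 (chr13:92611138-92711946, plus strand, 12 exons) was not called either. Its normalized read count ran from 3415 to 3628 in Water-Water, 3241 to 3645 in Nicotine-Water, 2983 to 3475 in Water-Ethanol and 3159.9 to 3719.8 in Nicotine-Ethanol. In normalized reads 3 of 4 mice of each treated group lay below all Water-Water mice. The remaining mouse lay above all Water-Water mice in Nicotine-Water and in Nicotine-Ethanol. Mouse 13 of Water-Ethanol was below only narrowly, at 3413 normalized reads against 3415 in the lowest Water-Water mouse. In FPKM 3 mice of Nicotine-Water, 2 of Water-Ethanol and 3 of Nicotine-Ethanol lay below. The share of all genes with such counts was not computed, so no result about Serinc5 is read from them. The log2 fold change was -0.05 (edgeR adjusted p = 0.791) in Nicotine-Water, -0.11 (95% interval -0.21 to -0.004, adjusted p = 0.241) in Water-Ethanol and -0.08 (adjusted p = 0.451) in Nicotine-Ethanol. Without the mice numbered 21 and 10 these were -0.06, -0.12 and -0.10. Mean normalized reads were 3524 (SD 94.5) in Water-Water and 3395 (SD 177) in Nicotine-Water. They were 3261 (SD 226) in Water-Ethanol and 3332 (SD 260.6) in Nicotine-Ethanol, where mouse 5 stood at 3719.8.

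**Figure D4:**
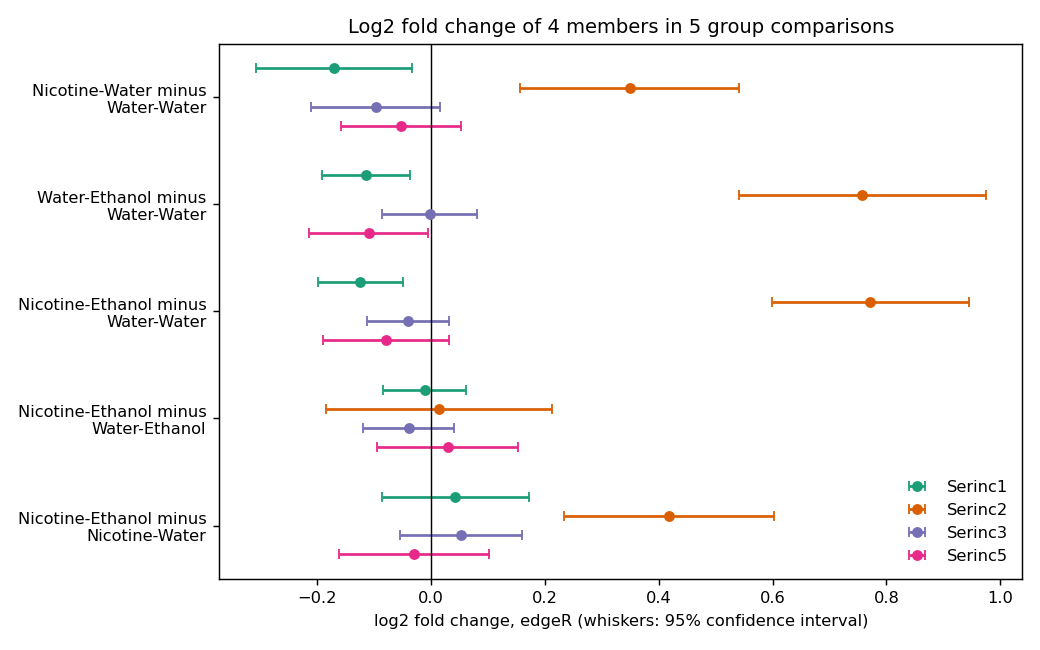
Log2 fold change from edgeR of Serinc1, Serinc2, Serinc3 and Serinc5 in 5 group comparisons, with points at the estimate and whiskers at its 95% confidence interval. Serinc2 stands at 0.35, 0.76 and 0.77 against Water-Water, while the estimates of the other members lie between -0.17 and 0.05; the Serinc2 points of the ethanol comparisons are a description, since the family was picked on them.

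The counts of Serinc4 were too low for a test in most comparisons. With all mice kept, it passed the filter on low counts in Nicotine-Ethanol against Nicotine-Water and in the fit of all 16 mice, and it passed in some Nicotine-Ethanol against Water-Water fits with a mouse left out. Since it passed where the groups with more reads were present, its differences are given as a description, without a test. The reads counted were 11, 3, 9 and 6 in Water-Water, 8, 7, 11 and 10 in Nicotine-Water, 5, 7, 6 and 5 in Water-Ethanol and 11, 9, 10 and 13 in Nicotine-Ethanol. The log2 difference of the nicotine groups averaged over ethanol was 0.55 (SE 0.24), and that of the ethanol groups averaged over nicotine was -0.02 (SE 0.23). On FPKM the nicotine difference was -0.06 on the log2(FPKM + 1) scale, so the 2 tables differ in its direction. The mean of Nicotine-Ethanol was 1.84 times that of Water-Ethanol in normalized reads and 0.973 times in FPKM. In normalized reads all 4 mice were higher, which 1.98% of genes showed, and here it rests on 9 to 13 reads against 5 to 7.

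Serinc2 lies in a run of genes on chromosome 4, of which 1 rose and 1 fell in the averaged ethanol effect. The neighbours described were Col16a1, Pef1, Hcrtr1, Tinagl1 and Gm853 on the lower side and Fabp3, Zcchc17, Snrnp40 and Nkain1 on the upper. Gm853 was left out by the filter, and 2 of the other 8 were called for the ethanol effect averaged over nicotine, against 4.5% of all genes. Tinagl1, which encodes a secreted matrix glycoprotein and ends 78.4 kb below Serinc2, rose by 0.41 (SE 0.076, edgeR adjusted p = 0.00724). Its normalized read count was 225 to 291 in Water-Water, 231 to 301 in Nicotine-Water, 342 to 439.6 in Water-Ethanol and 297 to 366 in Nicotine-Ethanol, so the Nicotine-Water mice were not between the others as they were for Serinc2. Fabp3, a fatty acid binding protein gene that begins 33.2 kb above Serinc2, fell by 0.17 (SE 0.044, adjusted p = 0.0385). Nkain1, 254.5 kb above Serinc2, differed by -0.02 (95% interval -0.14 to 0.10, adjusted p = 0.876), and the other 5 had estimates between -0.09 and 0.17 with an adjusted p of at least 0.246. None of these 8 was called in any comparison of single groups. The smallest such adjusted p was that of Tinagl1 in Water-Ethanol against Water-Water (log2 fold change 0.49, edgeR adjusted p = 0.0539).

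**Figure D5:**
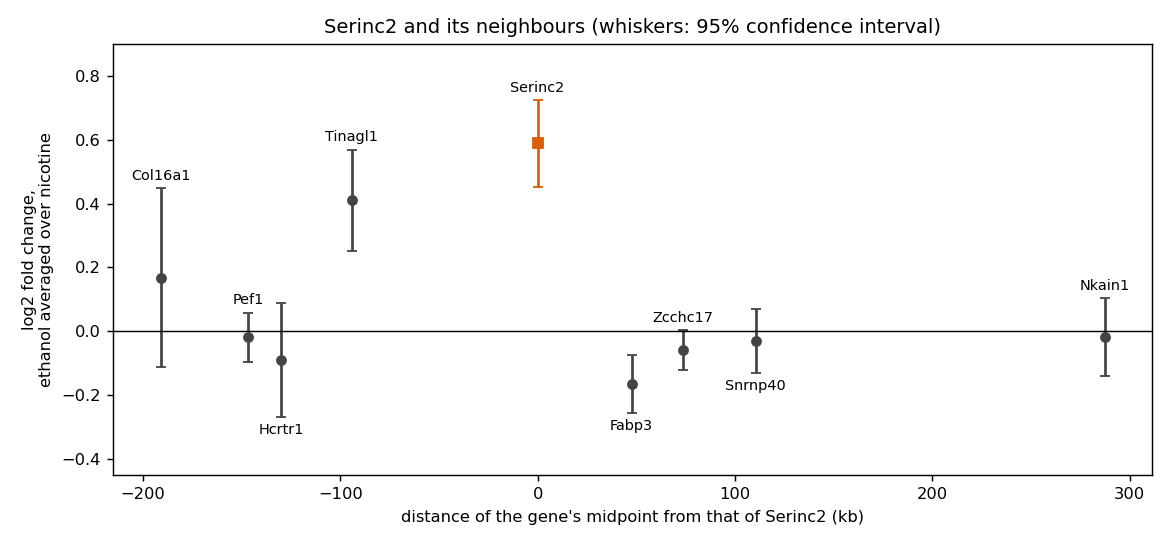
Log2 fold change of the ethanol effect averaged over nicotine for Serinc2 (orange square) and 8 neighbouring genes (grey), by the distance of each gene's midpoint from that of Serinc2 in kb, with whiskers at the 95% confidence interval from edgeR. Tinagl1 (0.41) lies above 0 and Fabp3 (-0.17) below it, and the intervals of the other 6 neighbours cross 0.

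Genes that make or move the lipids for which the family is named were mostly not called. Of 10 genes of serine supply, such as Phgdh, the first enzyme of serine synthesis, and Srr, which makes D-serine, 0 passed the test in any comparison, and their median log2 difference for the ethanol effect averaged over nicotine was -0.04, against 0.002 over all genes. Srr stood at -0.12 (edgeR adjusted p = 0.0731) and Phgdh at -0.09 (adjusted p = 0.155). Of 5 phosphatidylserine genes 0 passed (median -0.05), with Abhd12, a lysophosphatidylserine lipase, at -0.09 (adjusted p = 0.125) and Pisd, the phosphatidylserine decarboxylase, at -0.05 (adjusted p = 0.337).

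Of 22 sphingolipid genes 19 were tested and 1 passed, in the ethanol effect averaged over nicotine only. Ugt8a, which makes the galactolipids of myelin, fell by 0.19 there (SE 0.049, edgeR adjusted p = 0.0307). Its normalized read count was 4503 to 5528 in Water-Water, 3961 to 4506 in Nicotine-Water, 3736 to 4452 in Water-Ethanol and 3931 to 4564 in Nicotine-Ethanol. The treated groups overlapped with each other, so the lower values were not confined to ethanol. The log2 difference from Water-Water was -0.23 in Nicotine-Water (edgeR adjusted p = 0.343), -0.32 in Water-Ethanol (0.0572) and -0.29 in Nicotine-Ethanol (0.0825). Nicotine-Ethanol minus Nicotine-Water was -0.06 (edgeR adjusted p = 0.701). The median of the 19 was -0.03. Of 17 scramblases and flippases, which move lipids between membrane leaflets as SERINC proteins can, 1 passed, also in the averaged ethanol effect only. Atp11a, a phospholipid flippase, rose by 0.15 (SE 0.041, edgeR adjusted p = 0.0431). Mice ran from 2627 to 2868 normalized reads in Water-Water and 2594 to 2878 in Nicotine-Water. They ran from 2860 to 3366 in Water-Ethanol and 2731 to 3238 in Nicotine-Ethanol, overlapping both groups without ethanol. The median of the 17 was 0.07. All these lists were read against 4.5% of all genes called in either direction.

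Levels in whole tissue do not say which cells hold the RNA, and fewer cells of a type and less RNA per cell cannot be told apart. Summed CPM of marker lists are given beside the members. The neuronal list (6 of 6 genes above 0 in every mouse) ran from 6207 to 6503 in Water-Water, 5678 to 6361 in Nicotine-Water, 5814 to 6288 in Water-Ethanol and 5922 to 6304 in Nicotine-Ethanol. After group means were removed, Pearson's r with this list over 16 mice was 0.83 for Serinc1, 0.75 for Serinc3, -0.27 for Serinc5 and -0.60 for Serinc2. The oligodendrocyte list (6 of 6 above 0) ran from 6873 to 8199 in Water-Water, 7014 to 8029 in Nicotine-Water, 6334 to 7379 in Water-Ethanol and 6759 to 7743 in Nicotine-Ethanol, and its r was 0.63 for Serinc5 and 0.10 for Serinc2. These are descriptions over libraries that share depth and composition.

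The choroid plexus list (5 of 5 above 0) was 557 to 703 in Water-Water, 468 to 769 in Nicotine-Water, 608 to 736 in Water-Ethanol and 620 to 710.2 in Nicotine-Ethanol, with an r of -0.40 with Serinc2 after group means were removed. Its marker Kcnj13, a potassium channel gene, had the rank of 3 by p-value in Water-Ethanol against Water-Water, with a log2 fold change of 0.63 (SE 0.089). Kcnj13 is named for this rank only. The other markers of the list are not given singly, and the summed list overlapped between these groups. The olfactory bulb list (4 of 4 above 0) was 80.1 to 81.5 in Water-Water, 47.5 to 77.9 in Nicotine-Water, 39.1 to 85.5 in Water-Ethanol and 43.8 to 76.5 in Nicotine-Ethanol. All mice of Nicotine-Water and Nicotine-Ethanol and 3 of 4 of Water-Ethanol were thus below Water-Water in this list, and its r with Serinc2 was -0.53 over 16 mice and -0.41 after group means were removed, while its r with Serinc1 was 0.01 after group means were removed. Microglia markers (6 of 6 above 0) summed to 257 to 327 in Water-Water and 228 to 283 in the treated mice, and the sums of pituitary and blood markers did not exceed 16.9 and 6.00 CPM, each with 1 of 3 genes above 0 in every mouse. Over all groups the astrocyte list ran from 1352 to 1673 CPM, the endothelial list from 221 to 248.8, the ependymal list from 20.3 to 27.5 and the list of meninges and fibroblasts from 135 to 217, with overlap between Water-Water and each treated group. The part of cell makeup in the Serinc1 and Serinc2 values was not tested.

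The genes most like Serinc2 were found by Pearson's r of log2 CPM over the 16 mice. The 10 highest were Pdrg1 (r = 0.94), Irf2 (0.93), Trabd (0.93), Furin (0.92), Zdhhc18 (0.92), A3galt2 (0.92), Pxk (0.92), Plch2 (0.92), Chd2 (0.91) and Capn15 (0.91), and the 5 lowest were Cyfip1 (-0.96), Fip1l1 (-0.93), Khdrbs1 (-0.92), Vnn1 (-0.91) and 3830406C13Rik (-0.88). Much of this likeness is the split by ethanol on which Serinc2 was picked. After group means were removed, r was 0.54 for Pdrg1, 0.66 for Irf2, a transcription factor of interferon responses, and 0.68 for Furin, a proprotein convertase, and it was 0.83 for Capn15, a calpain family protease. The genes highest by that measure were 1700020D05Rik (0.91), Col20a1 (0.91), Rela (0.87), Clgn (0.87) and Rfng (0.86). Of the 10 genes highest over 16 mice, 5 were also among the highest 10 by Spearman's rho, 8 on log2(FPKM + 1) and 5 without mouse 21.

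Cyfip1, which encodes a protein that regulates actin and translation, ran opposite to Serinc2, with 2945 to 3019 normalized reads in Water-Water, 2829 to 2941 in Nicotine-Water, 2498 to 2728 in Water-Ethanol and 2628 to 2699.6 in Nicotine-Ethanol. Its r with Serinc2 was -0.78 after group means were removed. Its ethanol groups overlapped with each other and lay below the other groups. The Water-Water and Nicotine-Water ranges only just missed each other, at 2945.4 and 2941.3. Their log2 difference was -0.04 (edgeR adjusted p = 0.776), so no step with nicotine alone is read from it. Cyfip1 was named for the lowest r with Serinc2 over the same mice, so this pattern follows in part from that choice. The share of all genes with such a falling pattern was not counted.

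The other members had different companions. Serinc1 ran with Atp6ap2 (r = 0.98), an accessory subunit of the proton pump, Kpna3 (0.98) and Eid1 (0.97). Serinc3 ran with Tiparp (0.93), Hspa13 (0.91) and a gene whose symbol the count table gives as the date 5-Mar (0.92). Serinc5 ran with Lrp4 (0.82), Lamc1 (0.82) and 9630001P10Rik (0.81), and Serinc4, on its few reads, with Rbpms2 (0.72), Sox5 (0.71) and Dnah7a (0.69). Between members, r was 0.77 for Serinc1 and Serinc3 and -0.53 for Serinc1 and Serinc2 over 16 mice, and 0.77 and -0.53 after group means were removed. For Serinc2 and Serinc3 it was -0.21 over 16 mice and -0.70 after group means were removed.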

How the data were processed

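The authors trimmed single-end reads with Trimmomatic 0.32, aligned them with TopHat2 to GRCm38 (mm10) and deposited whole read counts per gene, not normalized, and FPKM per gene from the Cufflinks tools, 1 column per mouse in each table. Counts were analysed in R 4.3.3 with edgeR 4.0.16: TMM factors, the default filter on low counts, the quasi-likelihood test in fits of the groups compared, and a fit of all 16 mice for the averaged effects and the interaction, with Benjamini-Hochberg adjustment over all genes tested and a threshold of 0.05. Standard errors were taken from the log2 fold change and its F statistic. Alternatives were RLE factors, DESeq2 1.42.0, no filter, limma 3.58.1 on log2(FPKM + 1) or log2(FPKM + 0.1), and leaving out each mouse. Log2 CPM (counts scaled to library size) used a prior count of 2. The edgeR and DESeq2 tests were first run on simulated data with known changes.

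The members, gene lists and tests were chosen with earlier results of these data known. Named genes are the 5 members, list genes called in any comparison or otherwise the 2 with the smallest p for ethanol, the neighbours, and the genes with the highest or lowest r. Genes ranked just below Serinc2 by p-value and the overlapping Serf2 are named as well. Mice carry the numbers of their labels. The labels give no cage, litter or batch. Total counts of 27100352 to 32880979 per mouse limit the precision of low counts such as those of Serinc4. Protein identity between members was not analysed here. The neighbours were to be the 5 nearest genes on each side of Serinc2, of which 1 is not reported here.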

Additional observations from a re-analysis of the deposited data

Results flagged for a closer look

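Each member was examined in each group of 4 for a mouse far from the other 3, by the gap to the nearest mouse over the range of the group, and 2 of 20 groups passed Dixon's critical value, where chance gives about 1 in 20. Both were mouse 5 of Nicotine-Ethanol. Its Serinc5 normalized read count was 3719.8, with the other 3 mice at 3159.9 to 3239. Its Serinc4 normalized read count was 13.2, with the other 3 at 9.88 to 10.0. Before scaling these were 13 reads against 11, 9 and 10, so the Serinc4 flag rests on very few reads.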

How the results depend on the processing

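In Water-Ethanol against Water-Water, 70 genes were called by edgeR, 533 by DESeq2, 143 without the filter, 28 in the fit of all 16 mice and 0 by limma on FPKM under each pseudocount and filter. The members called were 1 by edgeR (Serinc2), 2 by DESeq2 and 0 by limma. Leaving out single mice gave 0 to 797 genes and 0 to 1 members. In Nicotine-Ethanol against Water-Water, 48 genes were called by edgeR, 457 by DESeq2 and 1 by limma under each setting, with 2 members by DESeq2, and leaving out single mice gave 0 to 283 genes and 0 to 1 members. The Serinc2 log2 difference was 0.62 in both comparisons by limma on log2(FPKM + 1), with and without the filter. In Nicotine-Water against Water-Water, 107 genes were called by DESeq2 and 112 in the fit of all 16 mice. In Nicotine-Ethanol against Water-Ethanol, DESeq2 called 2 genes, and edgeR without the filter and limma called 1 each (0 to 1 leaving out single mice). In Nicotine-Ethanol against Nicotine-Water, 90 genes were called by DESeq2, 57 in the fit of all 16 mice and 3, 3 and 1 by limma, with 1 member by DESeq2 and 1 in the fit of all mice. For the averaged nicotine effect DESeq2 called 65 genes (0 to 49 by edgeR leaving out single mice), for the interaction 2, and the averaged ethanol effect had 280 to 899 genes leaving out single mice. Leaving out both mice low in cerebellar markers, chosen after seeing the data, gave 797, 283 and 1061 genes for Water-Ethanol, Nicotine-Ethanol and the averaged ethanol effect. Of the 10 genes most like Serinc2, 5 were shared under Spearman's rho and 5 without Water-Water mouse 21.

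Directions turned for the values below. Serinc3 in Water-Ethanol was 0.0036 by limma under each setting, 0.0018 without both mice and -0.031 to 0.017 leaving out single mice. Serinc4 for the averaged ethanol effect was 0.032, 0.036 and 0.032 by limma, 0.034 without both mice and -0.15 to 0.13 leaving out single mice, and for the averaged nicotine effect it was 0.55 by edgeR and -0.058, -0.065 and -0.058 by limma. Leaving out single mice, Nicotine-Ethanol minus Water-Ethanol ran from -0.066 to 0.089 for Serinc2 and -0.029 to 0.058 for Serinc5, Nicotine-Ethanol minus Nicotine-Water from -0.019 to 0.081 for Serinc1 and -0.089 to 0.0081 for Serinc5, and the averaged nicotine effect of Serinc5 from -0.039 to 0.0051. As CPM per kilobase the levels were 409.8 for Serinc1, 94.2 for Serinc3 and 0.11 for Serinc4. The cause of these shifts was not tested. No paired analysis was possible because the groups share no replicate numbers. Counting precision is lowest for Serinc4, at 3 to 13 reads per mouse, and why so few were counted was not tested.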
